A study of Mus musculus with 6 samples.

Results

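Genes of MHC class I antigen presentation, 10 in number, were followed in the retinas of mice with oxygen-induced retinopathy (OIR). The 10 genes were picked by name for their place in the pathway, with earlier results of these data known. Among them are the light chain gene B2m and the heavy chain genes H2-K1, H2-D1 and H2-T23. The others are the peptide transport and loading genes Tap1, Tap2 and Tapbp, the immunoproteasome genes Psmb8 and Psmb9, and the activator gene Nlrc5. All 10 were among the 32285 genes of the count table and among the 20021 genes with at least 10 reads in total, which were tested. Of the 10, 9 had a fitted value above that of the controls and 1 below, by small amounts, and none passed the test. B2m and H2-K1 came closest, with levels 1.28-fold and 1.23-fold higher after chronic intermittent hypoxia (CIH).

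Wild-type C57BL/6J pups and their mothers were kept at 75% O2 for 5 days, from postnatal day (PN) 8 to PN13, which closes and removes capillaries in the centre of the developing retina. After the return to room air at PN13, the OIR-CIH pups lived under CIH, in which the cage O2 fell from 20.95% to 5% and came back in 266 cycles of 135 s during 10 h each day, and the OIR-Norm pups received the same gas flow and noise with O2 left unchanged. Retinas were taken at PN18, and by the study's methods 3 OIR-CIH and 3 OIR-Norm retinas were sequenced as whole tissue. Both groups had been through hyperoxia, so the comparison is of CIH added to OIR, and retinas without OIR were not analysed here.

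Each retina gave 26289905 to 38010151 counted reads, and the groups overlapped in this depth. RNA of the female Xist gene (298 to 1653 CPM) and of 4 Y-linked genes (57.3 to 184 CPM in sum) was present in each of the 6 libraries. How many animals stand behind each library is therefore not known, and an n of 3 counts libraries. Wherever a value is given per retina, in text or captions, the retina stands for a sequenced library. The Y-linked sums were 57.3, 111 and 110 CPM in OIR-CIH replicates 1, 2 and 3 and 172, 69.7 and 184 CPM in OIR-Norm. Of these 5 genes, 4 had a fitted value below that of the controls, 2 at an unadjusted edgeR p under 0.05 and 0 at an adjusted one. The groups overlapped in the Y-linked sums, and the part of the sex mix in the class I levels was not tested. Nothing in the labels says that the 3 libraries of a group came from separate litters, and p-values measure the spread between these libraries only. Photoreceptor RNA was abundant in all 6 libraries, with sums of 1033 to 1309 CPM over the 5 cone markers Opn1sw, Opn1mw, Arr3, Gnat2 and Pde6h. One library stood apart: lens markers summed to 244 CPM in OIR-Norm replicate 2 and to 8.81 to 40.3 CPM in the other 5. Leaving that library out left 9 of the 10 class I genes above the controls and 1 below, with 0 of 10 passing the test.

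MHC class I molecules stand on the surface of nearly every nucleated cell and show short peptides from the cell's own proteins to CD8 T cells and natural killer cells. Proteasomes cut proteins into peptides, the TAP transporter moves these into the endoplasmic reticulum, tapasin helps to load them, and the heavy chain reaches the surface only together with the light chain, beta-2-microglobulin. Neurons of a healthy retina are known for low class I levels, whereas endothelium, microglia and other immune cells carry more, and interferons raise the whole pathway through IRF1 and the activator NLRC5. In whole-tissue RNA, fewer cells of a type and less RNA per cell cannot be told apart.

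On chromosome 17, where the mouse MHC is, lie 8 of the 10 genes. Coordinates are those of GENCODE M21 on GRCm38, the build given in the submitters' processing notes; the study's methods name a later Ensembl release, whose coordinates may differ. B2m lies at chr2:122147686-122153083 on the plus strand and Nlrc5 at chr8:94434356-94527272 on the plus strand. On chromosome 17, Tapbp is at chr17:33915899-33929292 (plus), H2-K1 at chr17:33996017-34000347 (minus) and H2-D1 at chr17:35262730-35267499 (plus). Psmb9 at chr17:34181987-34187764 (minus), Tap1 at chr17:34187553-34197225 (plus), Psmb8 at chr17:34197721-34201454 (plus) and Tap2 at chr17:34203527-34216321 (plus) stand side by side, and H2-T23 is at chr17:36029773-36032855 (minus).

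Promoters of classical class I genes carry short elements that are textbook binding sites for NF-kB, for interferon regulatory factors and for the NLRC5 complex, and 4 such letter patterns were searched on both strands in the 250 bases before the RefSeq start sites of GRCm38.p6. A window was held for 8 of the 10 genes, all but Tap2 and Nlrc5. The patterns were the interferon-response-like GAAANNGAAA, the NF-kB motif, the CCAAT box and TGACG, a cyclic AMP response element half-site. They were found in 2, 3, 7 and 5 of the 8 genes, against 2.98%, 7.25%, 33.8% and 17.8% of all 32851 windows. The first are counts of genes and the second shares of windows, and H2-K1 had 2 windows. The patterns were picked as known elements of class I promoters, so a higher share than in all windows was set in advance. It is no result of these data. H2-K1 and H2-D1, both among the 3 genes with the NF-kB motif, are near copies of each other and do not count as independent. The windows of Tap1 and Psmb9, which run in opposite directions, overlap. Their CCAAT matches are the same bases, and so are their TGACG matches, so the 7 and the 5 each count a shared site for both genes. The stretches of B2m and H2-K1, the pair with the lowest p, are printed 5′ to 3′ on the gene's own strand from 200 to 2 bases before the start site, with pattern matches in capitals.
B2m, chr2:122147487-122147685, plus strand: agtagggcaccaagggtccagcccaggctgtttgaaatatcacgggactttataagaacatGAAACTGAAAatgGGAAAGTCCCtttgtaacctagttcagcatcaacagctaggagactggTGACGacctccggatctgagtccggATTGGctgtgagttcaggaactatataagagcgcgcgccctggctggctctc
H2-K1, chr17:34000349-34000547, minus strand: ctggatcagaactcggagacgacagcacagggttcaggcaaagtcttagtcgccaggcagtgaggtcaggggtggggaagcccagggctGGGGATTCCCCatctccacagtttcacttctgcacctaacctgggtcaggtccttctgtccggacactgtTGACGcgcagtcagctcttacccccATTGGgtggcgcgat
In B2m the capitals are, in order, an interferon-response-like match at -139 to -130, an NF-kB match on the other strand at -126 to -117, a TGACG at -78 to -74 and a CCAAT box read on the other strand at -53 to -49. In H2-K1 they are overlapping NF-kB matches on both strands between -111 and -101, a TGACG at -41 to -37 and a CCAAT box on the other strand at -16 to -12. H2-D1 held the NF-kB, TGACG and CCAAT patterns, H2-T23 the interferon-response-like and CCAAT patterns, and Psmb8 none of the 4. A match is a description of letters and says nothing of binding in these retinas. Only these patterns were searched, so an element written with other letters was missed, and a gene without a match may still hold one.

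**Figure D1:**
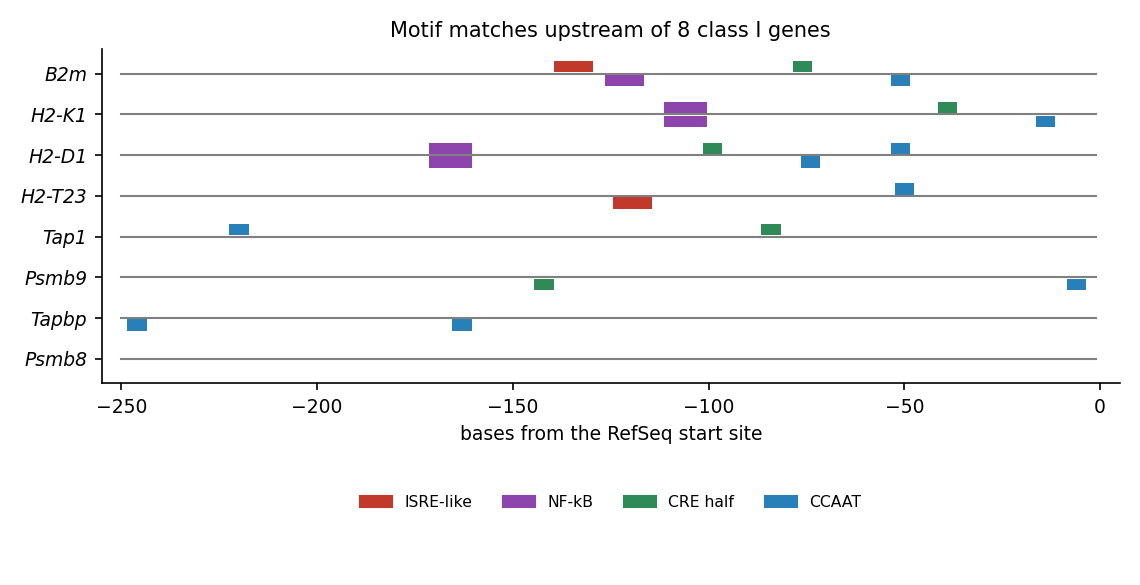
Matches to 4 letter patterns in the 250 bases before the RefSeq start site (x axis, bases from the start site) of 8 class I genes, 1 line per gene, with boxes above the line for the gene's own strand and below it for the other strand. The CCAAT pattern is present in 7 of the 8 genes and the interferon-response-like pattern in 2, B2m and H2-T23. The CCAAT matches of Tap1 and Psmb9 are the same bases, as are their TGACG matches.

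The comparison of OIR-CIH with OIR-Norm asks whether CIH shifts the class I pathway in the ischemic retina. Values are CPM, the reads of a gene relative to all reads of its library, with trimmed mean of M-values factors applied to the library sizes, and the test was edgeR's quasi-likelihood test with Benjamini-Hochberg adjustment over all 20021 genes, a gene being called at an adjusted p under 0.05 if its log2 fold change also passed 0.5 up or down. Of the 10 class I genes, 0 were called, beside 0.315% of all genes, and 0 reached an adjusted p under 0.05 alone, beside 0.39% of all genes. At an unadjusted p under 0.05, 2 of the 10 were higher in OIR-CIH and 0 lower, beside 6.2% of all genes higher and 7.01% lower. DESeq2, limma on log2(CPM + 0.5) and limma-voom also gave 0 of 10 with an adjusted p under 0.05. The groups did not overlap, with OIR-CIH above, for 3 of the 10 (B2m, H2-K1 and Psmb8), beside 9.12% of all genes, and with OIR-CIH below for 0 of the 10, beside 9.26%. The median log2 fold change was 0.14 over the 10 genes and -0.0028 over all genes tested. Without OIR-CIH replicate 1 it was 0.24, so this median depends on that library. In single genes, 3 libraries against 3 cannot give an exact permutation p under 0.1.

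**Figure D2:**
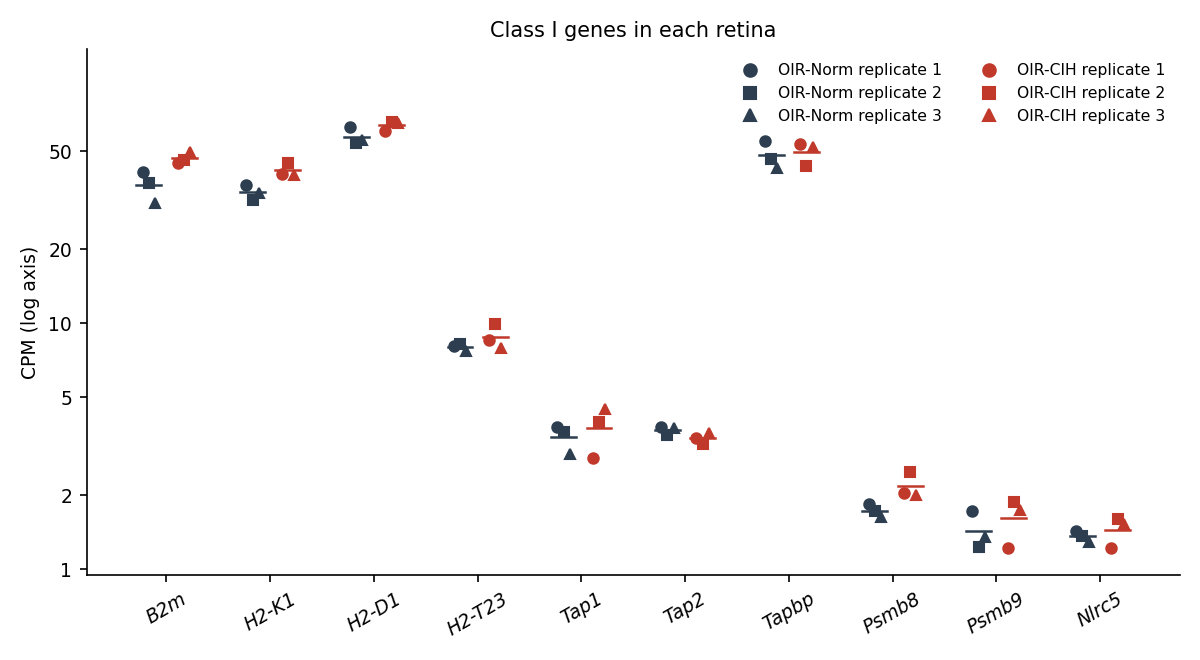
CPM (log axis) of the 10 class I genes in each of the 6 retinas, OIR-Norm in dark blue and OIR-CIH in red, marker shapes giving the replicate and bars the group mean of 3 retinas. B2m, H2-K1 and Psmb8 are the genes in which all 3 OIR-CIH points lie above all 3 OIR-Norm points.

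B2m (ENSMUSG00000060802) encodes beta-2-microglobulin, the light chain shared by all class I molecules. It was at 44.9, 46.1 and 49.6 CPM in OIR-CIH replicates 1, 2 and 3 and at 41.3, 37.2 and 31.0 CPM in OIR-Norm replicates 1, 2 and 3. The groups did not overlap, and the spread was wider in OIR-Norm, where replicate 3 was lowest. The means were 46.9 ± 2.44 and 36.5 ± 5.19 CPM (SD, n = 3 each), and the log2 fold change was 0.36 with an SE of 0.10 (95% interval 0.14 to 0.58). With an unadjusted p of 0.0034 it ranked 347th of all genes, and edgeR's adjusted p was 0.197. When 1 retina was left out, the log2 fold change of B2m lay between 0.255 (without OIR-Norm replicate 3) and 0.455 (without OIR-Norm replicate 1). Keeping every gene with at least 1 read, which tests 24439 genes, brought edgeR's adjusted p of B2m to 0.0450, and over all other settings it was 0.0636 to 0.457. B2m was covered by 986 to 1873 reads per retina, and no 50-base stretch of its principal transcript occurred in a transcript of another gene. A gene on the other strand, Patl2, spans its whole length and had 26 reads in all 6 libraries.

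H2-K1 (ENSMUSG00000061232) encodes the classical heavy chain K, which presents peptides to CD8 T cells. It was at 40.6, 44.7 and 40.2 CPM in OIR-CIH replicates 1, 2 and 3 and at 36.6, 31.6 and 33.9 CPM in OIR-Norm replicates 1, 2 and 3. The lowest OIR-CIH retina was above the highest OIR-Norm retina. The log2 fold change was 0.30 with an SE of 0.085 (95% interval 0.11 to 0.48), with an unadjusted p of 0.0041 and an edgeR adjusted p of 0.210. Across all settings H2-K1 kept its direction, with adjusted p from 0.10 to 0.482.

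H2-D1 (ENSMUSG00000073411) encodes the other classical heavy chain of these mice, D. It was at 60.6, 65.7 and 64.9 CPM in OIR-CIH replicates 1, 2 and 3 and at 62.5, 53.9 and 55.8 CPM in OIR-Norm replicates 1, 2 and 3. The groups overlapped, since OIR-Norm replicate 1 lay above OIR-CIH replicate 1. The log2 fold change was 0.15 with an SE of 0.077 (95% interval -0.02 to 0.32, edgeR adjusted p 0.425). H2-T23 (ENSMUSG00000067212) encodes Qa-1, a nonclassical heavy chain that is read by the CD94/NKG2 receptors of natural killer cells. Its levels were 8.55, 9.95 and 7.91 CPM in OIR-CIH and 8.08, 8.24 and 7.73 CPM in OIR-Norm. The groups overlapped, and the log2 fold change was 0.13 with an SE of 0.13 (edgeR adjusted p 0.709). With 1 retina left out it was between 0.036 (without OIR-CIH replicate 2) and 0.205 (without OIR-CIH replicate 3).

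Heavy chain genes are near copies of each other, and reads shared by several of them can be lost or split. Of the 50-base stretches of the principal transcript, 8.79% in H2-K1, 14.3% in H2-D1 and 29.8% in H2-T23 also occurred in transcripts of other genes, so the level of H2-T23 is the least certain of the 3. Because reads can be split between these genes, the reads of all 17 class I heavy chain genes in the table were also added up per retina. Such a sum cannot bring back shared reads that were lost in counting. The sums were 146, 160 and 149 CPM in OIR-CIH replicates 1, 2 and 3 and 145, 133 and 135 CPM in OIR-Norm replicates 1, 2 and 3. All 3 OIR-CIH sums were above all 3 OIR-Norm sums, but the lowest OIR-CIH and the highest OIR-Norm sum lay close together. Tested as 1 feature, the log2 fold change was 0.14 with an SE of 0.073 (95% interval -0.01 to 0.30, edgeR adjusted p 0.426). Summing H2-K1, H2-D1 and H2-T23 alone gave 0.20 with an SE of 0.075 (edgeR adjusted p 0.301).

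Within these heavy chain reads H2-D1 made up 41.9% on average, H2-K1 26.2%, H2-T23 5.82% and H2-Q7 5.40%. The share of H2-K1 was 27.7%, 27.9% and 27.0% in OIR-CIH replicates 1, 2 and 3 and 25.3%, 23.8% and 25.2% in OIR-Norm replicates 1, 2 and 3. Each OIR-CIH share was above each OIR-Norm share; these shares are given as a description.

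Tap1 and Tap2 encode the subunits that pair to form the peptide transporter, and Tapbp encodes tapasin, which holds the empty heavy chain at the transporter. Tap1 (ENSMUSG00000037321) was at 2.83, 3.95 and 4.50 CPM in OIR-CIH replicates 1, 2 and 3 and at 3.80, 3.61 and 2.95 CPM in OIR-Norm replicates 1, 2 and 3. The lowest and the highest of the 6 retinas were both OIR-CIH, and the log2 fold change of 0.13 had an SE of 0.20 (edgeR adjusted p 0.813). Without OIR-CIH replicate 3 it was -0.03. Tap2 (ENSMUSG00000024339) was at 3.41, 3.22 and 3.57 CPM in OIR-CIH and at 3.80, 3.51 and 3.74 CPM in OIR-Norm. It was the only 1 of the 10 genes with a fitted value below 0, a log2 fold change of -0.11 with an SE of 0.15 (edgeR adjusted p 0.799), and it stayed below 0 in all 13 alternative settings. The groups overlapped for Tap2 because OIR-CIH replicate 3 was above OIR-Norm replicate 2.

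Tapbp (ENSMUSG00000024308) was at 53.5, 43.8 and 52.2 CPM in OIR-CIH replicates 1, 2 and 3 and at 55.1, 46.6 and 43.0 CPM in OIR-Norm replicates 1, 2 and 3. The highest and the lowest retina were both OIR-Norm. Its log2 fold change was 0.05 with an SE of 0.10 (95% interval -0.18 to 0.27, edgeR adjusted p 0.882), and the sign turned without OIR-CIH replicate 1 or without OIR-Norm replicate 3. The Tapbp gene model overlaps that of Zbtb22 on the same strand by 3422 bases, introns included, and Zbtb22 had 13527 reads in all. Whether exons of the pair overlap, and whether Tapbp reads were lost that way, was not tested.

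Psmb8 and Psmb9 encode catalytic subunits that replace Psmb5 and Psmb6 in the immunoproteasome, the form that cuts peptides suited to class I. Psmb8 (ENSMUSG00000024338) was at 2.04, 2.50 and 2.01 CPM in OIR-CIH replicates 1, 2 and 3 and at 1.85, 1.72 and 1.63 CPM in OIR-Norm replicates 1, 2 and 3. The groups did not overlap, but only 49 to 76 reads per retina stand behind these levels. The log2 fold change was 0.33 with an SE of 0.20, a 95% interval of -0.10 to 0.76 and an edgeR adjusted p of 0.508. Psmb9 (ENSMUSG00000096727) was at 1.22, 1.87 and 1.75 CPM in OIR-CIH and at 1.72, 1.23 and 1.35 CPM in OIR-Norm, and the groups overlapped. Its log2 fold change was 0.18 with an SE of 0.24 (edgeR adjusted p 0.799), and 0.064 without OIR-CIH replicate 2 to 0.329 without OIR-CIH replicate 1. The Psmb9 and Tap1 models run in opposite directions and overlap by 212 bases, and 12.5% of the 50-base stretches of Psmb9 also occur in Tap1.

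Each inducible subunit was also set against the constitutive subunit it replaces, as CPM per kb of transcript. Psmb8 was 1.78% ± 0.232 of Psmb5 in OIR-CIH and 1.75% ± 0.288 in OIR-Norm (SD, n = 3 each). Psmb9 was 0.908% ± 0.236 of Psmb6 in OIR-CIH and 0.952% ± 0.148 in OIR-Norm. Psmb10, the third inducible subunit, was 18.3% ± 1.17 of Psmb7 in OIR-CIH and 18.1% ± 2.16 in OIR-Norm. The groups overlapped for all 3 pairs, with a two-sided exact permutation p of 0.8 for each and of 0.8 after adjustment over the 3. At these levels Psmb8 and Psmb9 RNA stayed between 0.636% and 2.07% of that of the constitutive subunits in every retina.

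Nlrc5 (ENSMUSG00000074151) encodes the activator that switches on B2m, the heavy chains, Tap1 and Psmb9. It was at 1.22, 1.59 and 1.53 CPM in OIR-CIH replicates 1, 2 and 3 and at 1.43, 1.37 and 1.29 CPM in OIR-Norm replicates 1, 2 and 3. The lowest retina and the highest pair were all OIR-CIH, so the groups overlapped. Its log2 fold change was 0.10 with an SE of 0.22 (95% interval -0.39 to 0.58, edgeR adjusted p 0.888), and it was read 31 to 58 times per retina. With 1 retina left out the log2 fold change was between 0.027 (without OIR-CIH replicate 2) and 0.197 (without OIR-CIH replicate 1). For Tap1, Psmb8, Psmb9 and Nlrc5, with 31 to 170 reads per retina, and for B2m, the upper end of the 95% interval lay above the fold minimum of 0.5, so that a difference of that size was not excluded. For the other 5 genes both ends of the interval lay within 0.5 of 0.

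**Figure D3:**
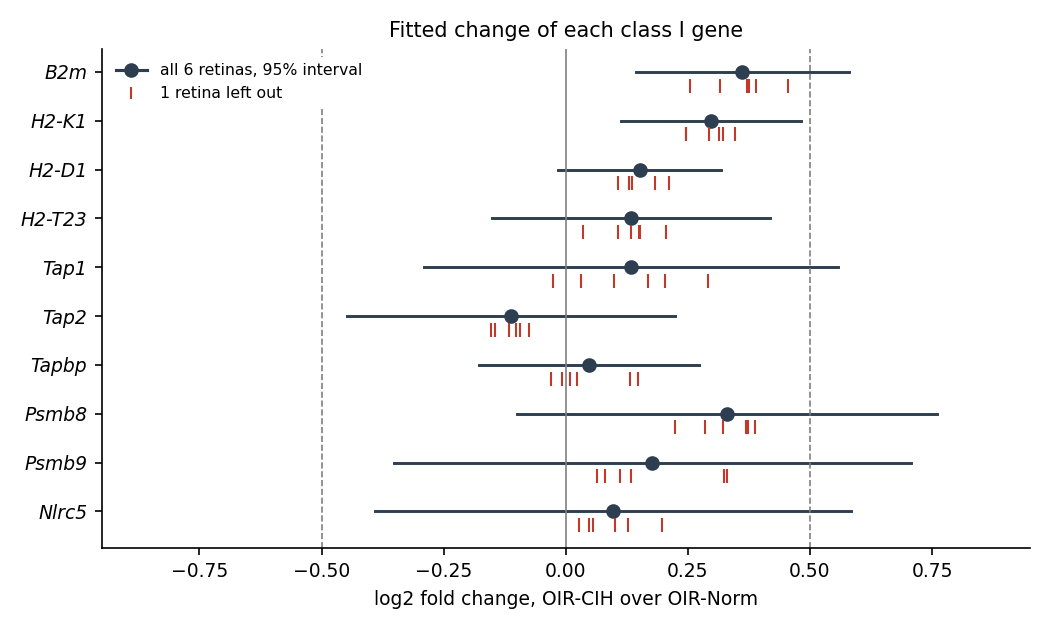
Fitted log2 fold change (x axis, OIR-CIH over OIR-Norm) of the 10 class I genes, dots with lines for the value and its 95% interval over all 6 retinas and red ticks for the values with 1 retina left out; dashed lines mark the fold minimum of 0.5 in both directions. The intervals of B2m and H2-K1 lie above 0, and the ticks of Tap1 and Tapbp fall on both sides of 0.

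Levels were compared between genes as CPM per kb of the principal transcript. B2m was highest, with a mean of 54.5 CPM per kb in OIR-CIH and 42.4 in OIR-Norm, and was above H2-D1 in 6 of 6 retinas. H2-D1 (30.3 and 27.3), H2-K1 (25.8 and 21.0), Tapbp (17.2 and 16.6) and H2-T23 (5.98 and 5.45 CPM per kb) followed, each above the next in 6 of 6 retinas, although the ranges of H2-D1 and H2-K1 over the retinas overlapped. Psmb8, Tap1, Psmb9 and Tap2 came next, between 0.900 and 1.53 CPM per kb in all retinas, and their ranges overlapped, so that no order among them can be given. Nlrc5 was lowest, at 0.161 to 0.210 CPM per kb.

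Retinas differed from each other within groups in the class I genes. As deviations of log2(CPM + 0.5) from each gene's mean over the 6 retinas, averaged over the 10 genes, OIR-CIH replicates 1, 2 and 3 were at -0.03, 0.13 and 0.11 and OIR-Norm replicates 1, 2 and 3 at 0.04, -0.10 and -0.15. OIR-CIH replicate 1 was thus below OIR-Norm replicate 1. OIR-CIH replicate 2 held the highest level of 6 of the 10 genes, and OIR-Norm replicate 3 the lowest level of 4. H2-D1 followed the mean of the 10 most closely, with a mean absolute difference of 0.0256 on this scale, and Tap2 least, with 0.121. Of 14790 other genes with a mean of at least 1 CPM, Rragd (0.0200), A930029G22Rik (0.0206), Fam126a (0.0251) and Paox (0.0263) were among the 5 with the smallest mean absolute difference from the mean profile over the 6 retinas.

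**Figure D4:**
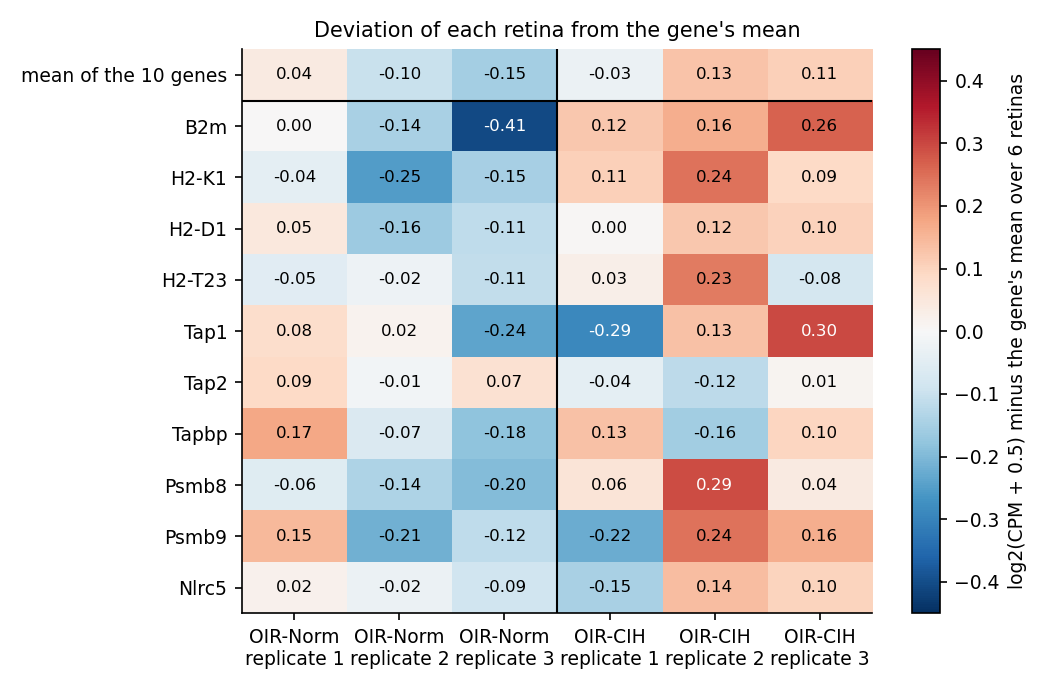
Deviation of each retina from the gene's own mean over 6 retinas, in log2(CPM + 0.5), for the mean of the 10 class I genes (top row) and each gene, with blue for lower and red for higher. The top row runs from -0.15 in OIR-Norm replicate 3 to 0.13 in OIR-CIH replicate 2.

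Other genes of the pathway were read from the same fit. Of 18 other class I heavy chain genes listed, 14 were in the table and 9 were tested. Of the 9, 3 had a fitted value above 0 and 6 below, 0 had an adjusted p under 0.05 and 1 had an unadjusted p under 0.05, H2-T22, a heavy chain that binds no peptide and is read by some gamma delta T cells. H2-T22 was at 5.65, 6.34 and 6.75 CPM in OIR-CIH and at 5.36, 3.89 and 5.12 CPM in OIR-Norm, groups that did not overlap, with a log2 fold change of 0.38 and an SE of 0.16 (edgeR adjusted p 0.343). H2-T24 had a log2 fold change of -0.39 (edgeR adjusted p 0.418). Without OIR-CIH replicate 3 or without OIR-Norm replicate 2, 5 of the 9 were above 0 and 4 below. Of the 4 class I-like genes tested (Cd1d1, Mr1, Fcgrt and Hfe), the groups overlapped for each.

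Among 6 genes of peptide trimming and loading, 3 had a fitted value above 0 and 3 below, and 1 had an unadjusted p under 0.05. That gene was Calr, a chaperone of the loading complex and of many other glycoproteins, at 510 ± 39.8 CPM in OIR-CIH and 436 ± 39.9 CPM in OIR-Norm (SD, n = 3 each), with a log2 fold change of 0.22 and an edgeR adjusted p of 0.351. Of the 19 proteasome core and activator genes, all 19 had a fitted value above 0, beside 49.5% of all genes, with a median log2 fold change of 0.17. Of the 19, 7 were higher at an unadjusted p under 0.05, beside 6.2% of all genes, and 0 had an adjusted p under 0.05. The groups did not overlap, with OIR-CIH above, for 5 of the 19, beside 9.12% of all genes. Psmb5, a catalytic subunit of the standard proteasome, was at 67.8 ± 2.11 CPM in OIR-CIH and 55.7 ± 8.61 CPM in OIR-Norm, with a log2 fold change of 0.28 and an edgeR adjusted p of 0.285. Psme2, a subunit of the PA28 activator, had a log2 fold change of 0.24 (edgeR adjusted p 0.304). OIR-Norm replicate 2, the library with lens RNA, also had the lowest proteasome sum, 1042 CPM against 1234 to 1319 CPM in the other 5. Without it the median of the 19 was 0.08, with 16 above 0 and 3 below and 2 at an unadjusted p under 0.05.

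Upstream of the pathway, the 8 DNA-binding partners of NLRC5 and related factors had 4 fitted values above 0 and 4 below, with Creb1 at a log2 fold change of -0.14 (edgeR adjusted p 0.416). Of 13 interferon signalling genes tested, 5 were above 0 and 8 below, with 0 at an adjusted p under 0.05 and 2 below at an unadjusted p under 0.05. Irf1, an interferon-induced factor that acts on class I promoters, was at 5.89, 5.89 and 7.30 CPM in OIR-CIH and at 7.46, 10.9 and 8.45 CPM in OIR-Norm. These groups did not overlap, with OIR-CIH lower, and the log2 fold change was -0.48 with an SE of 0.16 (edgeR adjusted p 0.276). The interferon genes Ifng and Ifnb1 had 1 and 0 reads in all 6 libraries together.

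Of 16 interferon-stimulated genes outside the class I pathway, 15 had a fitted value above 0 and 1 below, beside 49.5% of all genes above 0. The median log2 fold change was 0.44. The groups did not overlap with OIR-CIH above for 8 and below for 1, beside 9.12% and 9.26% of all genes. At an unadjusted edgeR p under 0.05, 8 were higher and 1 lower, beside 6.2% and 7.01%. One of the 16 passed the test: Oasl2, an antiviral gene of the oligoadenylate synthetase family, rose from 10.8 ± 0.750 CPM in OIR-Norm to 16.8 ± 1.12 CPM in OIR-CIH (SD, n = 3 each), a log2 fold change of 0.64 with an SE of 0.11 and an edgeR adjusted p of 0.0242. With 1 retina left out, a gene of this list had an adjusted p under 0.05 in 1 of the 6 fits, the one without OIR-Norm replicate 1. Irf7, the factor that amplifies type I interferon, had a log2 fold change of 0.50 (edgeR adjusted p 0.103). With DESeq2, 2 of the 16 had an adjusted p under 0.05, and 1 was called. The study's own list of significantly changed genes includes both Oasl2 and Irf7. Gbp2, a guanylate-binding protein induced by interferon gamma, had a log2 fold change of -0.38 (edgeR adjusted p 0.360). The median of the 10 class I genes, 0.14, thus lay between those of all genes and of this list; the difference between the lists was not tested.

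The MHC class II pathway, which shows peptides from outside the cell and is mostly restricted to immune cells, had 5 fitted values above 0 and 6 below among 11 genes tested, with 0 at an adjusted p under 0.05. Its median log2 fold change was -0.24, a value that single libraries decided: leaving out OIR-CIH replicate 1 gave 0.011, leaving out OIR-Norm replicate 2 gave 0.0046 and leaving out OIR-CIH replicate 3 gave -0.056. With limma on log2(CPM + 0.5) it was -0.048. Cd74, the invariant chain of class II, was at 0.706, 0.901 and 0.900 CPM in OIR-CIH and at 2.27, 1.75 and 1.07 CPM in OIR-Norm, with a log2 fold change of -1.01 and an edgeR adjusted p of 0.224. H2-Ab1, a class II beta chain, was at 8.40, 8.04 and 8.12 CPM in OIR-CIH and at 6.95, 6.52 and 5.69 CPM in OIR-Norm, with a log2 fold change of 0.36 and an edgeR adjusted p of 0.298. The groups did not overlap for either of these, in opposite directions. Over the 11 genes, OIR-CIH lay below without overlap for 3 and above for 1, beside 9.26% and 9.12% of all genes. At an unadjusted edgeR p under 0.05, 3 were lower and 1 higher, beside 7.01% and 6.2%. H2-Aa, a class II alpha chain, had the lowest p of the list. Its log2 fold change was -2.14 (edgeR adjusted p 0.195), on 2 to 17 reads per retina. Of 7 genes listed as class I receptors, 3 were tested, and the others had too few reads. Cd8a had 67 to 125 reads per retina, with means of 3.71 CPM in OIR-CIH and 2.79 CPM in OIR-Norm. Its groups overlapped (log2 fold change 0.40, edgeR adjusted p 0.496). Pirb and Lilrb4a were lower, with 5 to 16 and 3 to 43 reads per retina. Lilrb4a, an inhibitory receptor of myeloid cells, was the only 1 of the 3 with an unadjusted p under 0.05. Its log2 fold change was -1.55 with an edgeR adjusted p of 0.195, on 3 reads in the lowest retina. Whether Lilrb4a reads class I was not tested.

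**Figure D5:**
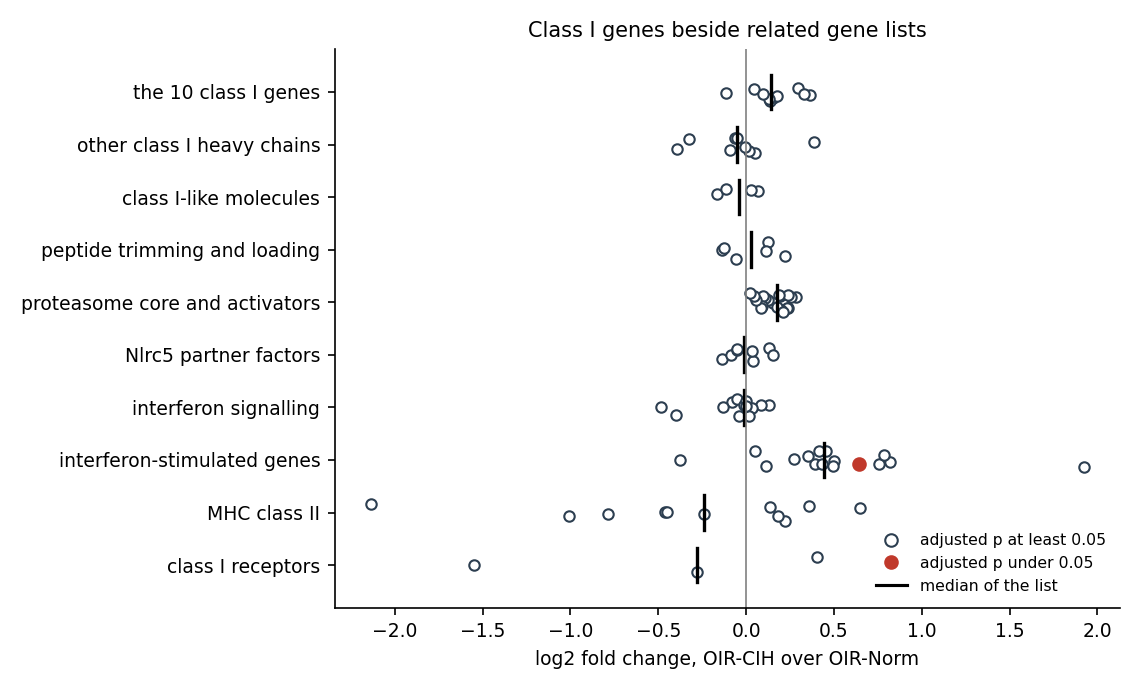
Fitted log2 fold change (x axis, OIR-CIH over OIR-Norm) of every tested gene of the class I list and 9 related lists, open circles for an adjusted p of at least 0.05, the filled red circle for Oasl2, which passed, and black bars for the list median. The 10 class I genes lie between -0.11 and 0.36 around a median of 0.14, the 19 proteasome genes between 0.02 and 0.28, and the interferon-stimulated genes around 0.44.

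Markers of cell types moved beside the class I genes as follows. The 10 microglia markers summed to 83.2 to 99.2 CPM in OIR-CIH and to 104 to 121 CPM in OIR-Norm, without overlap, with 9 of 10 fitted values below 0. One of them passed the test, Fcrls, at 6.16 ± 0.436 CPM in OIR-CIH and 9.94 ± 0.695 CPM in OIR-Norm (log2 fold change -0.69, edgeR adjusted p 0.0414). With 1 retina left out, a marker of this list passed in 2 of the 6 fits, those without OIR-CIH replicate 3 and without OIR-Norm replicate 2, and under the replicate block and limma on log2(CPM + 0.5) 0 passed. The 5 pigment epithelium markers summed to 285 to 434 CPM in OIR-CIH and to 176 to 278 CPM in OIR-Norm, without overlap and with OIR-CIH higher, and 4 of 5 fitted values were above 0, with 0 at an adjusted p under 0.05. With every gene of at least 1 read kept, the setting in which B2m had an adjusted p under 0.05, those 4 passed the test. In the fit with a replicate block 4 of the 5 also passed, and without OIR-Norm replicate 1, 2 passed. Endothelial markers overlapped between groups, with 275 to 317 CPM in OIR-CIH and 278 to 376 CPM in OIR-Norm, and 9 of 9 fitted values were below 0, with a median log2 fold change of -0.34. Without OIR-Norm replicate 2, the library with lens RNA, 4 were above 0 and 5 below, with a median of -0.025. T and natural killer cell markers summed to 2.67 to 5.26 CPM in all retinas, mostly Cd8a, and only 2 of 7 had enough reads to be tested. The T cell genes Cd3d, Cd3e and Cd3g had 2, 0 and 2 reads in all 6 libraries together. The Cd8a level is therefore not a measure of T cells here. The part of these cell types in the class I levels was not tested.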

How the data were processed

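Poly(A) RNA of 3 OIR-CIH and 3 OIR-Norm retinas at PN18 was sequenced from libraries of 250 ng RNA. Per the methods and the submitters' processing notes, the authors aligned reads with STAR 2.7.9a, counted reads per gene with its GeneCounts option and deposited raw counts of 32285 genes in 1 table. The notes name GRCm38 and the methods a later Ensembl release, and the strand column kept is not given in the sources used here. The authors' own differential testing used DESeq.

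Here, counts were matched to GENCODE M21 symbols by identifier (32158 matched; the other 127 were kept under their identifiers), scaled with trimmed mean of M-values factors (0.969 to 1.03) and tested with edgeR 4.0.16 in R 4.3.3, after the study's minimum of 10 reads in total. The standard error was the log2 fold change divided by the square root of F. Alternatives were DESeq2 1.42.0, limma 3.58.1 on log2(CPM + 0.5), limma-voom, median-of-ratios scaling, a minimum of 1 read, filterByExpr, a block on the replicate number, no fold minimum, other sums of heavy chains and leaving out each retina. The scripts were tested on simulated data. No pair of replicates agreed within counting noise.

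The 10 genes and all gene lists were chosen with earlier results of these data known, as was the test; all 10 are named, and of each other list at most 5 genes, from those with the lowest p. Named outside this rule, because a pair or a pathway question turns on them, are Gbp2, H2-Q7, Psmb6, Psmb7, Psmb10, Zbtb22, Patl2, Ifng and Ifnb1. Cd3d, Cd3e and Cd3g are also named outside it, for their few reads. The 10 genes had 31 to 2454 reads per retina. Values of some single genes under this rule are not reported here.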

Additional observations from a re-analysis of the deposited data

How the results depend on the processing

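Of 130 pairs of a class I gene and an alternative setting, 126 kept the direction and the side of the threshold, 3 had the other direction and 1 passed the threshold. The pair that passed was B2m (log2 fold change 0.36) with every gene of at least 1 read, where 1 of the 10 genes passed and 213 genes were called against 63 in the reported fit. The other direction was that of Tapbp without OIR-CIH replicate 1 (-0.0085) and without OIR-Norm replicate 3 (-0.031), in a range of -0.031 to 0.149 with 1 retina left out, and of Tap1 without OIR-CIH replicate 3 (-0.025), in a range of -0.025 to 0.291. DESeq2 called 135 genes (34 higher and 101 lower), with a split of directions that moved from 20 higher and 43 lower. With 1 retina left out, 35 (without OIR-CIH replicate 1) to 104 genes (without OIR-Norm replicate 3) were called, 0 of the 10 class I genes passed, their median log2 fold change was 0.11 to 0.24, and the summed heavy chains gave 0.10 to 0.18. The cause of these differences was not tested.

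The replicate numbers shared by the groups did not pair the libraries: deviations of same-numbered libraries correlated at 0.162, 0.143 and -0.238 across 14800 genes, and only replicate 1 correlated best with its own number. A replicate block called 84 genes, 0 of them class I genes. Psmb8, Psmb9 and Nlrc5 had the fewest reads of the 10 genes, 31 to 76 per retina.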
